A study of Mus musculus with 10 samples.

Results

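All 8 arrays of double heterozygous (dHet) cells were compared with the 2 arrays of wild-type pro-B cells, to describe what leukemic and non-leukemic dHet cells share. The dHet side held B-ALL, an acute leukemia of B cell precursors, from mice numbered 686, 713 and 760, with 2 arrays each, and 2 arrays of non-leukemic dHet pro-B cells (dHet-proB). The leukemic cells were Ebf1+/- Pax5+/- and were taken from lymph node. The dHet-proB cells were Ebf1+/- Pax5+/- Rag2-/-. They were grown from c-Kit-positive fetal liver cells on OP9 feeder cells with 5 ng/ml IL-7, 10 ng/ml Flt3 ligand and 10 ng/ml stem cell factor. The wt-proB cells were Ebf1+/+ Pax5+/+ and were sorted from bone marrow as Fraction BC. The ages of the mice are not given in the sources used here. A gene was called shared when all 8 dHet arrays lay on the same side of both wt-proB arrays. Of the 14455 genes measured, 3392 (23.5%) were higher and 2659 (18.4%) lower on all 8 dHet arrays.

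EBF1 and PAX5 are transcription factors that commit lymphoid progenitors to the B lineage. EBF1 switches on early B cell genes, among them Pax5, and PAX5 then maintains B cell genes and silences genes of other lineages. Losing 1 copy of each gene lowers the dose of both factors, and mice with this genotype are a model of B-ALL. Pro-B cells depend on the cytokine IL-7, which signals through JAK kinases and STAT5, and they leave that state when the pre-B cell receptor is assembled.

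A level here is the log2 processed signal of a gene's brightest probe minus the 75th percentile of its array, so that 0 is that percentile. A change is a difference of group means, in log2 units, given with the standard error (SE) that limma estimated over 7 samples: the mean of each leukemic mouse, 2 dHet-proB arrays and 2 wt-proB arrays. The leukemias and dHet-proB counted equally on the dHet side. The gap is the log2 distance between the dHet array and the wt-proB array that lie nearest to each other. Probes well above background made up 35.7% to 52.4% of each array, with replicate 1 of leukemia 686 the lowest. Replicates correlated at r = 0.994 in wt-proB and 0.992 in dHet-proB across genes, which are not independent replicates. Nothing in the labels tells whether replicates came from separate animals or cultures, so p-values measure only the spread between these samples, which may be technical. Leukemia replicate 1 arrays shared a slide, leukemia replicate 2 arrays another, and the 4 pro-B arrays were together on the last. The dHet and wt-proB cells also differed in tissue of origin, and the dHet-proB cells in culture and in Rag2, so that these differences cannot be told apart from the Ebf1 and Pax5 genotype. Xist, transcribed from the inactive X chromosome of females, was not well above background on either wt-proB array and was on 5 of the 8 dHet arrays.

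The genes that name the genotype were both below wild type on every dHet array. Ebf1 ran from 1.56 to 2.89 on the 8 dHet arrays (median 2.14) and stood at 3.11 and 2.99 on the wt-proB arrays. The 2 groups of arrays were separated by only 0.10, because dHet-proB stood at 2.84 and 2.89, close to wild type. The change was -0.62 ± 0.13 (SE, adjusted p = 0.0109) over the dHet side, with -1.05 in the leukemias and -0.18 in dHet-proB. On the array medians the main probe overlapped and the adjusted p was 0.585. With wt-proB replicate 1 or 2 left out its adjusted p was 0.093 or 0.0578. A second Ebf1 probe ran from -1.44 to -0.11 on the dHet arrays and stood at 3.19 and 3.0 in wt-proB, a gap of 3.11. The main probe lies on chromosome 11 from 44818365 to 44818424 and the second from 44462618 to 44462677 (mm9). Pax5 ran from -6.57 to -1.40 on the 8 dHet arrays (median -3.43) and stood at -0.30 and -0.67 on the wt-proB arrays. Its probe was well above background on 4 of the 8 dHet arrays, and the change was -2.55 ± 0.73 (SE, adjusted p = 0.0314). Setting the undetected arrays to the dimmest detected level gave -2.01. The adjusted p of Pax5 was 0.165 without wt-proB replicate 1, 0.12 without replicate 2, 0.0728 without dHet-proB replicate 1 and 0.0827 without its replicate 2. It was 0.0563 without replicate 1 of leukemia 686 and 0.0507 without replicate 2 of leukemia 713. The labels do not say which part of either gene is deleted, so these probes do not check the genotype.

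Among other regulators of B cell identity, the 4 described here had the largest gaps of those lower on all dHet arrays. Ikzf1 encodes IKAROS, a zinc finger factor needed for lymphoid development and a frequent target of deletion in human B-ALL. Its level ran from 0.88 to 2.33 on the 8 dHet arrays (median 1.26) and stood at 4.37 and 4.49 on the wt-proB arrays. The leukemias lay between 0.88 and 1.55 and dHet-proB at 2.22 and 2.33, between the leukemias and wild type. The change was -2.72 ± 0.11 (SE, adjusted p = 0.000236), or 6.58-fold lower. Ikzf3, which encodes AIOLOS of the same family, ran from -3.96 to 1.52 on the 8 dHet arrays (median -1.0) and stood at 4.04 and 4.07 on the wt-proB arrays, with leukemias 686 and 760 lowest. The change was -4.51 ± 1.21 (SE, adjusted p = 0.0258). Its adjusted p was 0.129 and 0.125 with wt-proB replicate 1 or 2 left out, and 0.0706 and 0.0635 with dHet-proB replicate 1 or 2 left out. Spib, which encodes an ETS factor of B cells, ran from 3.29 to 5.15 on the 8 dHet arrays (median 3.91) and stood at 7.18 and 7.08 on the wt-proB arrays, a change of -3.12 ± 0.38 (SE, adjusted p = 0.0019). Irf4, which encodes a factor of the pre-B transition and of plasma cells, ran from -0.02 to 2.46 on the 8 dHet arrays (median 0.81) and stood at 4.29 and 3.85 on the wt-proB arrays, a change of -2.64 ± 0.30 (SE, adjusted p = 0.00169). The probes of Pax5 and Ikzf1 are shown because both are placed across a gap between genomic blocks, at chr4:44550354-44582908 on the minus strand and chr11:11658319-11661278 on the plus strand (mm9, per the file headers). Nothing in them is capitalised, since the position of the junction was not determined.
Pax5 probe: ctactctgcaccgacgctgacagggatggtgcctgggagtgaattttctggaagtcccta
Ikzf1 probe: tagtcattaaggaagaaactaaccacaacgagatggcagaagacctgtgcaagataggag

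Of 29 measured transcription factors of the B lineage, 7 were lower on all dHet arrays (24.1%, against 18.4% of all genes). Another 3 were higher (10.3%, against 23.5% of all genes). The 7 also included Bach2. The 3 higher genes were Runx1, which did not pass limma, Erg, which encodes an ETS factor of progenitors, and Stat5a, which encodes a mediator of IL-7 signalling. Erg changed by 1.68 ± 0.17 (SE, adjusted p = 0.00125) and Stat5a by 1.05 ± 0.14 (SE, adjusted p = 0.00246), and another probe of Erg overlapped. Genes of V(D)J recombination did not follow one side. Rag2 stood at -1.60 and -1.69 in wt-proB, at -0.98 and -1.0 in dHet-proB, and between -3.14 and -2.56 in the leukemias. The Rag2-/- cells had the highest level at this probe, and the labels do not say which part of Rag2 is deleted. Rag1 likewise overlapped, with -1.83 in the leukemias and 0.30 in dHet-proB. Myc, whose product drives cell growth, was not shared: its change from wild type was 3.40 in the leukemias and -1.26 in dHet-proB, in opposite directions.

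**Figure D1:**
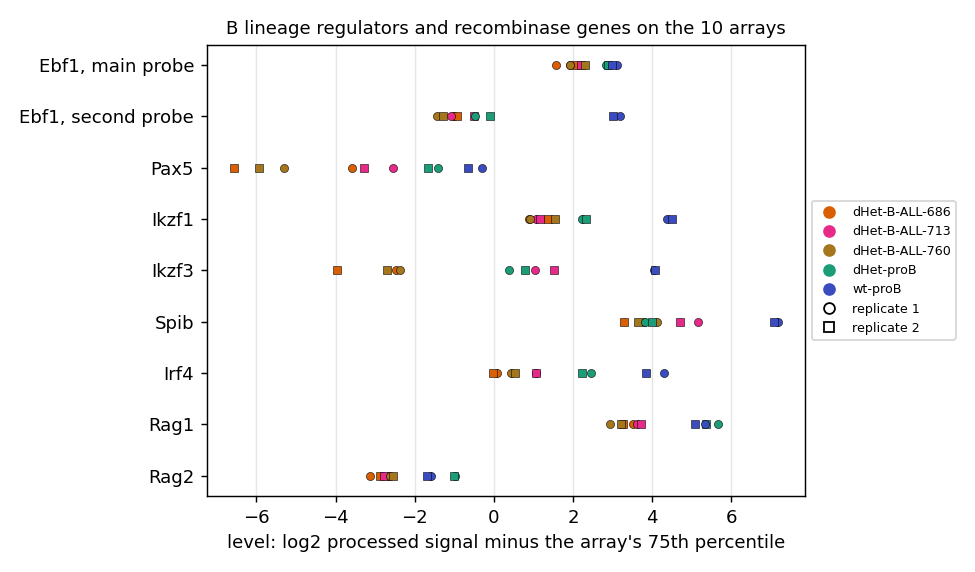
Levels (log2, relative to each array's 75th percentile) of B lineage regulators and recombinase genes on all 10 arrays, with colours for the 5 groups and marker shapes for the replicates. Ikzf1, Ikzf3, Spib and Irf4 are separated from wt-proB by gaps of 2.05, 2.52, 1.93 and 1.39, while the dHet-proB arrays of Rag1 and Rag2 reach or exceed wt-proB.

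Most shared genes were separated from wild type by a small gap, which is not the size of the change. The median gap was 0.36 among the 3392 shared higher genes and 0.64 among the 2659 shared lower genes. A gap of at least 1, which is 2-fold between the nearest arrays, was reached by 459 higher (3.18%) and 911 lower (6.3%) genes. With probes required to be well above background on all 10 arrays, the order was reversed, with 370 higher and 179 lower. At the edge of the call, Noa1 was just inside with a gap of 0.00013 and E2f8 just outside at -0.00019 among higher genes. Mlst8 (0.00063) and Ankrd12 (-0.00016) were the corresponding lower genes. In limma, 4049 genes rose (28%) and 3073 fell (21.3%), and 3049 and 2385 of these were also shared (21.1% and 16.5%). With only wt-proB replicate 2 as the control, 1784 rose and 1484 fell, and with only replicate 1, 2044 and 1612. The shared calls cannot lose genes when an array is left out, and numbered at most 3817 and 3121.

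The split between higher and lower depended on the scaling of the arrays. The median change of all genes was 0.11 on the main scale, 0.56 with array medians and -0.19 with the 75th percentile of probes detected on all arrays. Shared genes numbered 5289 higher and 1627 lower on the array medians, and 1999 and 3878 on the detected probes. Quantile normalization gave 2835 and 2977. Under all 5 other scalings or background corrections, 1816 higher and 1546 lower genes stayed shared, among them 454 of the 459 and 907 of the 911 with a 2-fold gap. The size of the gap was less stable: only 180 higher and 274 lower genes had a 2-fold gap under all 5. The lower genes also include many near background: 760 were kept only because wt-proB detected them, and 409 were not well above background on any dHet array. In the other direction, 180 shared higher genes were undetected on both wt-proB arrays. Among 9531 genes well above background on all 10 arrays, 3105 were shared higher and 938 shared lower. A gene's other probes sometimes differed: of 1500 shared higher genes with another probe, 770 had one that was also shared higher and 184 one that was shared lower. The counts were 497 and 7 of 667 for lower genes. Among the named shared genes that overlapped under at least 1 other scaling were Bcl2l1, Ccnjl, Ebf1, H2-Aa, H2-Eb1, Irs1, Jak3, Mx2, Ptprc, Slc15a2, Socs3, Tet3, Tnfrsf26, Vpreb1 and Ydjc.

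On the main scale, genes close to background in wild-type cells and clearly measured in every dHet sample led the higher side. Plch1, a phospholipase C gene, ran from -0.14 to 0.69 on the 8 dHet arrays (median 0.33) and stood at -6.08 and -6.25 on the wt-proB arrays. All dHet arrays lay within a range of 0.84, leukemic or not, and the gap of 5.94 was the largest on this side on the main scale. Its smallest gap under the 5 other scalings or background corrections was 1.76. The smallest gaps of Sema6d, Acsbg1 and Tnfsf11 were 1.41, 1.13 and 1.0, while Dok2, described below, kept 3.89. Since Plch1 was not well above background in wt-proB, it was at least 20.3-fold higher. Bounds of this kind set the higher side's mean against, on the lower side, the dimmest probe that the arrays detected. Sema6d, which encodes a semaphorin, was at least 22.6-fold higher, with leukemia 686 at 2.18 and 1.88 and replicate 2 of leukemia 713 at -0.64. Tnfsf11, which encodes RANKL, the osteoclast-inducing cytokine, was at least 10.03-fold higher, and the acyl-CoA synthetase gene Acsbg1 at least 39.95-fold. Acsbg1 was uneven, from -1.35 in leukemia 760 to 3.80 in leukemia 713.

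Several genes that wt-proB cells did express were also far higher. Ffar2, which encodes a fatty acid receptor, ran from 1.75 to 4.91 on the 8 dHet arrays (median 3.93) and stood at -3.09 and -3.53 on the wt-proB arrays. The dHet-proB arrays were the lowest of the 8, and the change was 6.29 ± 0.39 (SE, adjusted p = 0.000391), or 78.3-fold. Dok2, which encodes an adaptor that restrains tyrosine kinase signals, ran from 4.03 to 5.08 on the 8 dHet arrays (median 4.52) and stood at -0.60 and -0.34 on the wt-proB arrays. Its dHet arrays spanned only 1.06, for a change of 4.85 ± 0.18 (SE, adjusted p = 0.000236). Adgrg3, an adhesion G protein-coupled receptor, ran from 6.17 to 7.23 on the 8 dHet arrays (median 6.59) and stood at 1.63 and 1.90 on the wt-proB arrays. The leukemias and dHet-proB were alike in value, with 4.89 in the leukemias and 4.83 in dHet-proB. Prnp, which encodes the prion protein, changed by 4.82 ± 0.42 (SE, adjusted p = 0.000817), Myl10, a myosin light chain gene, by 5.57 ± 0.33 (SE, adjusted p = 0.000351) and Tmem119 by 5.27 ± 0.45 (SE, adjusted p = 0.000786). Not well above background on either wt-proB array were Dyrk4, at least 17.7-fold higher, Atp8b4, at least 15.3-fold higher, and Pde8a, at least 13.4-fold higher.

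The lower side held larger gaps. Col5a3, a fibrillar collagen gene, ran from -6.87 to -4.15 on the 8 dHet arrays (median -6.06) and stood at 4.20 and 3.80 on the wt-proB arrays. It was not well above background on any dHet array and was at least 248-fold lower, with a gap of 7.95. Wnt10a, a WNT ligand gene, was at least 57.4-fold lower and Reln, which encodes the secreted protein reelin, at least 33.3-fold. Etnk2, an ethanolamine kinase gene, was at least 28.5-fold lower, Sspn at least 15.4-fold and the developmental regulator gene Eya1 at least 14.2-fold. None of these 6 was detected on a dHet array. Upb1, of pyrimidine breakdown, ran from -6.56 to -3.06 on the 8 dHet arrays (median -5.97) and stood at 2.17 and 2.26 on the wt-proB arrays, and 1 of the 8 dHet arrays detected it. Casp4, which encodes an inflammatory caspase, changed by -5.72 ± 0.58 (SE, adjusted p = 0.00117), the kinase gene Nuak1 by -5.43 ± 0.48 (SE, adjusted p = 0.000826) and Rps4l, a copy of a ribosomal protein gene that may share sequence with its paralogs, by -5.64 ± 0.38 (SE, adjusted p = 0.000465). Of the 10 arrays, 9 detected Casp4, 8 Nuak1 and 6 Rps4l. The other 5 of the 15 genes, Fos, Fosb, Cd83, Fcmr and Ms4a1, belong to groups described next.

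**Figure D2:**
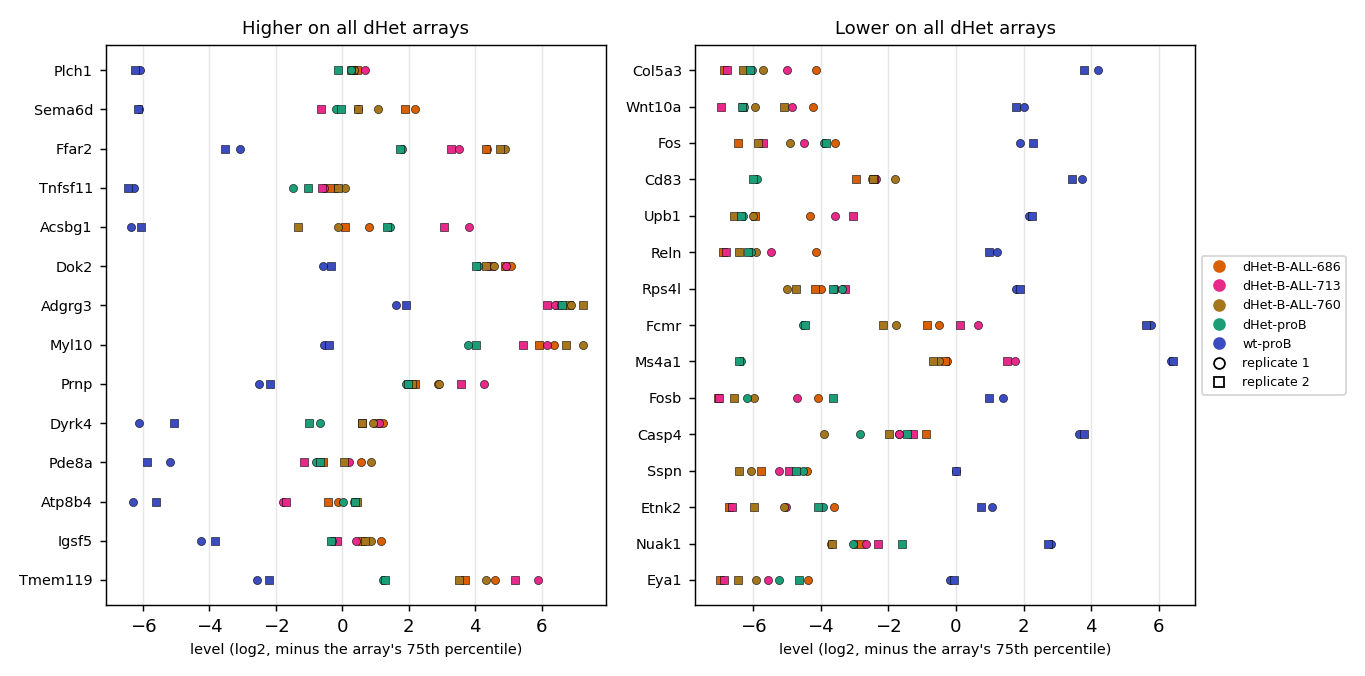
Levels (log2, relative to each array's 75th percentile) of 14 higher and 15 lower genes with the largest gaps between dHet and wt-proB arrays; points are single arrays coloured by group. No dHet point overlaps a wt-proB point, and the gaps run from 3.41 to 5.94 on the higher side and from 4.18 to 7.95 on the lower side.

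Some shared genes had nearly the same level in every dHet sample. Among genes with a gap of at least 1, the 8 most uniform on the higher side were Gpi1 of glycolysis, the translation factor gene Eef1b2, the ribosomal protein genes Rpl3 and Rpl10a, Tacc3, Clip1, Ap1s1 and Sh3bp1. Genes here were chosen for a small range over the dHet arrays. Their small SEs, small p-values and like values in leukemias and dHet-proB follow in part from that choice. Gpi1 ran from 7.17 to 7.51 on the 8 dHet arrays (median 7.40) and stood at 5.93 and 6.0 on the wt-proB arrays. It changed by 1.41 ± 0.11 (SE, adjusted p = 0.000619), with 1.43 in the leukemias and 1.40 in dHet-proB. Rpl3 ran from 7.91 to 8.31 on the 8 dHet arrays (median 8.0) and stood at 6.40 and 6.40 on the wt-proB arrays, a change of 1.67 ± 0.11 (SE, adjusted p = 0.000465). Tacc3 and Clip1, whose products bind microtubules, changed by 1.42 ± 0.13 and 1.95 ± 0.10 (adjusted p = 0.000926 and 0.000324). On the lower side Kdm1b, which encodes a histone H3 lysine demethylase, ran from 0.72 to 1.19 on the 8 dHet arrays (median 1.02) and stood at 3.31 and 3.21 on the wt-proB arrays, a change of -2.25 ± 0.13 (SE, adjusted p = 0.000337). Gclc, the catalytic subunit of glutathione synthesis, ran from 2.54 to 2.99 on the 8 dHet arrays (median 2.74) and stood at 4.24 and 4.10 on the wt-proB arrays, a change of -1.42 ± 0.14 (SE, adjusted p = 0.00117). Slamf7, a receptor of activated lymphocytes, changed by -2.08 ± 0.15 (SE, adjusted p = 0.000581). Fcho2, Leng9, Ccdc71l and Cables2 were the others besides Coq7, of which another probe was shared higher. Other probes of Fcho2 and Cables2 overlapped.

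Immediate early genes, which cells switch on within minutes of a stimulus, held the largest share of shared lower genes among the lists. Of 30 measured, 24 were lower on all dHet arrays (80%, against 18.4% of all genes), 17 of them by a 2-fold gap, and none was higher. The median change was -2.61, against 0.11 over all genes. In limma 25 fell and 1 rose, and 22 and 21 fell with wt-proB replicate 1 or 2 left out. Fos, a subunit of the AP-1 factor, ran from -6.44 to -3.57 on the 8 dHet arrays (median -4.70) and stood at 1.90 and 2.28 on the wt-proB arrays. No dHet array detected it, and it was at least 61.8-fold lower. Fosb was detected on 1 dHet array and changed by -6.58 ± 0.67 (SE, adjusted p = 0.00121), or by -5.02 with undetected arrays at the dimmest detected level. Egr1, which encodes a zinc finger factor downstream of MAP kinases, ran from -3.55 to -1.18 on the 8 dHet arrays (median -2.68) and stood at 2.73 and 2.71 on the wt-proB arrays, with dHet-proB highest among the dHet arrays. Its change was -4.80 ± 0.40 (SE, adjusted p = 0.000737). Ppp1r15a, a stress-induced phosphatase subunit gene, changed by -3.37 ± 0.18 (SE, adjusted p = 0.000324). Atf3, Egr2, Junb, Dusp1, Ier3 and Nr4a1 were shared lower as well. The list was written to hold genes that also rise while tissue is dissociated and sorted. Its summed linear level (1 being the array's 75th percentile) was 1052 to 1090 in wt-proB, 368 to 386 in dHet-proB and 233 to 311 in the leukemias. Whether cell handling contributed was not tested.

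Genes of the NF-kB pathway were also lower. NF-kB factors are held in the cytoplasm by IkB inhibitors and, once released, switch on the genes of their own inhibitors, which limit the response. Of 18 measured subunits and feedback genes, 10 were lower on all dHet arrays (55.6%, background 18.4%) and all 10 had a 2-fold gap. None was higher, and the median change was -2.10. In limma 11 fell and 1 rose, and 9 fell with either wt-proB array left out. The 10 stayed shared under all 5 other scalings. Nfkbia, which encodes the inhibitor IkB-alpha, ran from 3.93 to 5.17 on the 8 dHet arrays (median 4.94) and stood at 7.20 and 7.28 on the wt-proB arrays. Leukemia 686 was lowest, and the change was -2.37 ± 0.29 (SE, adjusted p = 0.00212), or 5.17-fold lower. Tnfaip3, which encodes the ubiquitin-editing inhibitor A20, ran from -0.29 to 2.27 on the 8 dHet arrays (median 0.88) and stood at 4.36 and 4.16 on the wt-proB arrays, a change of -2.85 ± 0.35 (SE, adjusted p = 0.00205). Nfkbid, of the nuclear IkB proteins, ran from -1.37 to 0.19 on the 8 dHet arrays (median -0.33) and stood at 3.92 and 3.93 on the wt-proB arrays, a change of -4.68 ± 0.18 (SE, adjusted p = 0.000236). Cd83, a surface protein induced by NF-kB, ran from -6.02 to -1.82 on the 8 dHet arrays (median -2.47) and stood at 3.74 and 3.42 on the wt-proB arrays, lowest in dHet-proB. It changed by -7.76 ± 0.20 (SE, adjusted p = 8.19e-05), or by -6.78 with undetected arrays at the dimmest detected level. Nfkbie, Nfkb2, Nfkbiz, Birc3, Bcl3 and Relb were the other 6.

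The promoters of Nfkbia and Tnfaip3 are shown because their genes fell together and both hold an NF-kB site. RefSeq gave a promoter, 250 bases before to 50 after the start, for 9748 of 12146 genes with a symbol (GRCm38.p6). The site was searched by its name, as the kappa B consensus, on both strands, after values had been seen. It was found in 5 of the 7 shared lower genes of the list that had a promoter (Nfkbia, Tnfaip3, Nfkbie, Nfkb2 and Bcl3) and in 5.01% of all promoters. Over the whole list it was in 5 of 13. Capitals mark the matches, which are letters in a window and not evidence of binding.
Nfkbia (chr12:55492598-55492897, minus strand): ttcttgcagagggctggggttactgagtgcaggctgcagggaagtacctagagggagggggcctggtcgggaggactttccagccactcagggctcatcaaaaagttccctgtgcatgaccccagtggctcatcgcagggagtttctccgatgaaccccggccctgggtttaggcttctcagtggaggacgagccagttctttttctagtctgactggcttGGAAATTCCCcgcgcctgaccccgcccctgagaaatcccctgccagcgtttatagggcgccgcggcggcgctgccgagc
Tnfaip3 (chr10:19015361-19015660, minus strand): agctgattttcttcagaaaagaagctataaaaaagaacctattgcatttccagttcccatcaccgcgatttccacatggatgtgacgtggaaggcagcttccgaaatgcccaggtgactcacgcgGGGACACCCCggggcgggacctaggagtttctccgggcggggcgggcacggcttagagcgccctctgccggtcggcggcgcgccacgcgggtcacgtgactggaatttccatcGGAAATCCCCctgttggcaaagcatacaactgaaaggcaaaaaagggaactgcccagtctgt

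Genes of later B cell stages were also lower. Of 25 measured, 15 were lower on all dHet arrays (60%, background 18.4%) and 1 was higher. The median change was -2.88, and 6 of the 15 stayed shared under all 5 other scalings. In limma 19 fell, and 10 and 11 fell with wt-proB replicate 1 or 2 left out. Ms4a1, which encodes CD20, ran from -6.42 to 1.74 on the 8 dHet arrays (median -0.42) and stood at 6.37 and 6.41 on the wt-proB arrays. It was undetected in dHet-proB and detected on all 6 leukemia arrays, and the changes were -6.15 in the leukemias and -12.78 in dHet-proB. With undetected arrays at the dimmest detected level the change over the dHet side was -8.29. Fcmr, the IgM Fc receptor gene, ran from -4.53 to 0.64 on the 8 dHet arrays (median -1.31) and stood at 5.77 and 5.62 on the wt-proB arrays, with leukemia 713 highest and dHet-proB lowest of the dHet samples. Its change was -8.32 ± 0.59 (SE, adjusted p = 0.000517). Cd40, which receives T cell help, changed by -5.27 ± 0.85 (SE, adjusted p = 0.00488). Of the 10 arrays, 8 detected Fcmr and 5 detected Cd40, and neither gene was well above background in dHet-proB. The sizes of both changes therefore rest in part on signals near background. The MHC class II genes H2-Aa, H2-Eb1 and H2-Ab1 were on the list too, with gaps of 0.57, 0.44 and 0.08. Without dHet-proB the adjusted p was 0.127 for H2-Aa and 0.114 for H2-Eb1. The summed linear level of the list was 531 to 617 in wt-proB, 102 to 121 in dHet-proB and 127 to 532 in the leukemias. In dHet-proB, 11 of the 25 genes were not well above background. Whether B cells of later stages were among the sorted wt-proB or lymph node cells was not tested, and fewer cells of a type and less RNA per cell cannot be told apart in such bulk samples.

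B cell genes that EBF1 and PAX5 activate were split. Of 34 measured, 16 were lower (47.1%, background 18.4%) and 3 higher (8.82%, background 23.5%) on all dHet arrays, with a median change of -1.02. In limma 18 fell and 3 rose, and 7 and 8 fell without wt-proB replicate 1 or 2. Cd72, a B cell co-receptor gene, ran from -0.54 to 3.53 on the 8 dHet arrays (median 0.78) and stood at 5.97 and 5.87 on the wt-proB arrays, with dHet-proB nearest to wild type, and changed by -3.99 ± 0.61 (SE, adjusted p = 0.00401). Fcrla, an Fc receptor-like gene, ran from -6.13 to 2.25 on the 8 dHet arrays (median 0.09) and stood at 5.98 and 5.76 on the wt-proB arrays. It changed by -5.62 ± 1.71 (SE, adjusted p = 0.0388), with adjusted p = 0.172 and 0.153 when wt-proB replicate 1 or 2 was left out, 0.0876 and 0.0946 without dHet-proB replicate 1 or 2, and 0.062 without replicate 1 of leukemia 760. Cd55, Siglecg, Cd38, Ralgps2, Cr2 and Ciita were among the other shared lower genes. All 3 higher genes encode the surrogate light chain, which pairs with the mu heavy chain in the pre-B cell receptor. Vpreb1 ran from 8.81 to 9.70 on the 8 dHet arrays (median 9.06) and stood at 7.92 and 8.26 on the wt-proB arrays, a change of 1.19 ± 0.15 (SE, adjusted p = 0.00211). Vpreb2 changed by 1.51 ± 0.25 (SE, adjusted p = 0.005) and Igll1 by 1.64 ± 0.22 (SE, adjusted p = 0.00275). Another Igll1 probe overlapped, and Vpreb1 and Vpreb2 are close paralogs whose probes may share signal. Of 18 genes described as repressed by PAX5, 6 were shared higher (33.3%) and 3 shared lower (16.7%), against 23.5% and 18.4% of all genes. Cd33, a myeloid lectin gene, was at least 5.08-fold higher, and Emb, which encodes embigin, changed by 2.81 ± 0.17 (SE, adjusted p = 0.000375). Cd7 went the other way, from 2.19 and 2.27 in wt-proB to between -3.51 and -1.39 on the dHet arrays (change -4.73 ± 0.26 (SE, adjusted p = 0.000324)). The EBF1 core CCCNNGGG was in 19.2% of 1257 promoters of shared lower genes, in 23.1% of 316 with a 2-fold gap, in 16.6% of 2535 of shared higher genes and in 17.7% of all.

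**Figure D3:**
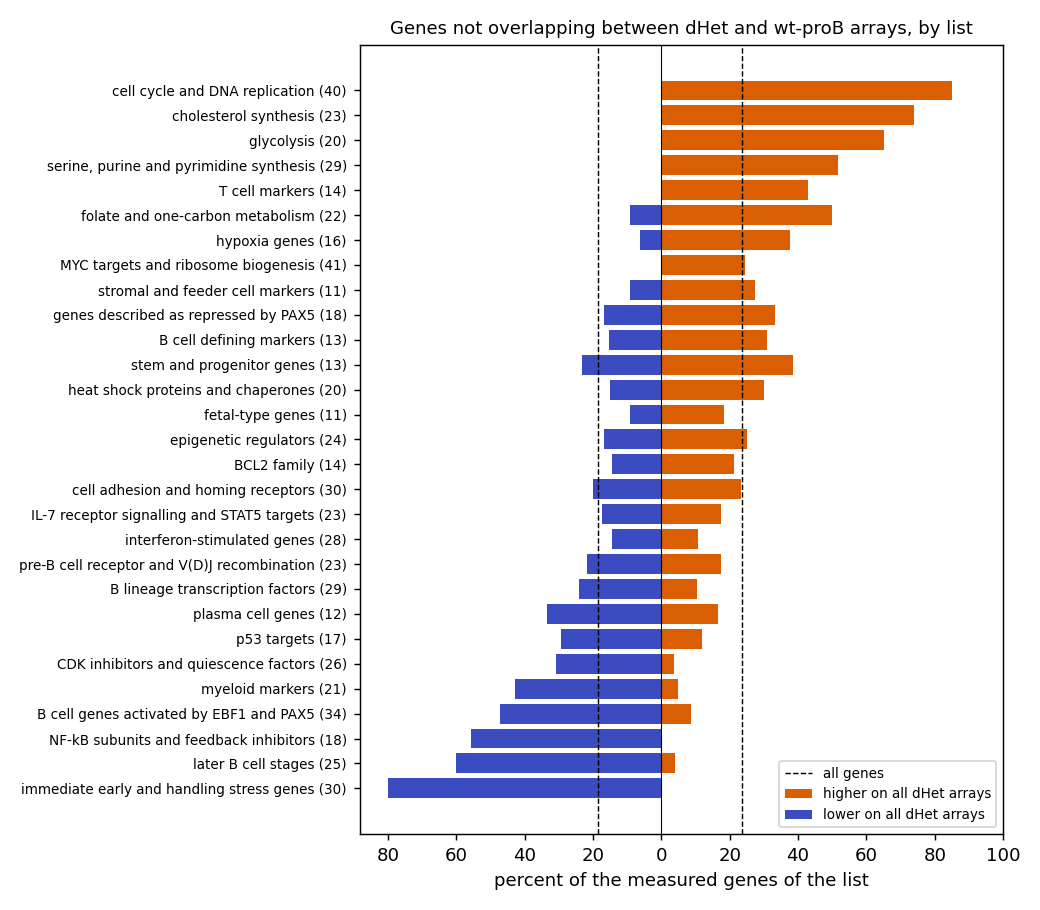
Percent of the measured genes of each list (list size in brackets) that were higher (right) or lower (left) on all 8 dHet arrays than on both wt-proB arrays; dashed lines give 23.5% and 18.4% for all genes. Cell cycle and cholesterol genes reach 85% and 73.9% on the right, and immediate early and later B cell genes 80% and 60% on the left.

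Cell cycle genes held the largest share of shared higher genes among the lists. Of 40 measured, 34 were higher on all dHet arrays (85%, background 23.5%), none was lower, and the median change was 1.0. In limma 36 rose, and 15 or 25 rose with wt-proB replicate 1 or 2 left out. On the scaling to detected probes 25 were shared higher and 1 shared lower, and 22 stayed shared higher under all 5 other scalings. Plk1, a mitotic kinase gene, ran from 4.55 to 5.38 on the 8 dHet arrays (median 4.98) and stood at 2.38 and 3.04 on the wt-proB arrays. The wt-proB arrays themselves differed by more than the 2 dHet-proB arrays, which both stood at 4.55, and the change was 2.11 ± 0.21 (SE, adjusted p = 0.00112). Cdk4, the G1 kinase partner of D cyclins, ran from 3.56 to 5.08 on the 8 dHet arrays (median 4.56) and stood at 2.02 and 2.14 on the wt-proB arrays, higher in the leukemias than in dHet-proB, and changed by 2.02 ± 0.17 (SE, adjusted p = 0.000732). Ccnb1, which encodes cyclin B1, changed by 2.21 ± 0.18 (SE, adjusted p = 0.000736) and the kinesin gene Kif20a by 2.06 ± 0.14 (SE, adjusted p = 0.000445). Replication genes such as Mcm2 to Mcm7, Pola1 and Pcna had gaps under 1. The opposite list, of CDK inhibitors and quiescence factors, had 8 shared lower (30.8%, background 18.4%) and 1 shared higher (3.85%, background 23.5%) of 26. Klf4 changed by -2.52 ± 0.29 (SE, adjusted p = 0.00163), Klf6 by -1.90 ± 0.25 (SE, adjusted p = 0.0026) and the antiproliferative gene Btg2 by -2.37 ± 0.38 (SE, adjusted p = 0.00478).

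Promoters of cell cycle genes often carry a CCAAT box, bound by NF-Y, and a cell cycle genes homology region (CHR), and the following are shown because these genes moved together. CCAAT was in 22 of 31 promoters of the list (71%) and 39.2% of all promoters. TTTGAA was in 11 of 31 (35.5%) and 12.2% of all. Both were searched on both strands and chosen after values had been seen. Among all shared higher genes with a promoter they were in 40.3% and 13.8%. In capitals are TTTGAA for Plk1 and CCAAT for Ccnb1.
Plk1 (chr7:122159185-122159484, plus strand): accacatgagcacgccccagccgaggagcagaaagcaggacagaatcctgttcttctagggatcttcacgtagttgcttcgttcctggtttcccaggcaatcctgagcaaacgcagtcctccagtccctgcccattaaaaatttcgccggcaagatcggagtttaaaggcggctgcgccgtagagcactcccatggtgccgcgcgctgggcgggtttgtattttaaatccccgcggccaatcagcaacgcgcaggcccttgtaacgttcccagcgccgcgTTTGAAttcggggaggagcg
Ccnb1 (chr13:100786437-100786736, minus strand): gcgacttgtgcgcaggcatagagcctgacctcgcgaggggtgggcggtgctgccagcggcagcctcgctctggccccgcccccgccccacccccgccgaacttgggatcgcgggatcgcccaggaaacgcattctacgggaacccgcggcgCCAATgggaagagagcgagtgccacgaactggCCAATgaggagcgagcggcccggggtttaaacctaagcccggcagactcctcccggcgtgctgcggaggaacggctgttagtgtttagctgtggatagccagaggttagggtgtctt

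Cholesterol synthesis genes, which SREBP2 switches on when sterols are low, were higher in both leukemic and non-leukemic dHet cells. Of 23 measured, 17 were shared higher (73.9%, background 23.5%), none was shared lower, and the median change was 1.22. The medians were 0.99 in the leukemias and 1.53 in dHet-proB against the same wt-proB arrays. By limma none of the 23 was higher and 1 lower in the leukemias than in dHet-proB, against 21.7% and 24.4% of all genes. In limma 16 rose against wild type, but only 3 and 5 did with wt-proB replicate 1 or 2 left out. Shared higher genes numbered 10 on the scaling to detected probes, and 9 stayed shared under all 5 other scalings. Sqle, the squalene epoxidase gene, ran from 1.74 to 3.67 on the 8 dHet arrays (median 2.26) and stood at -0.38 and -1.11 on the wt-proB arrays, highest in leukemia 760, and changed by 3.20 ± 0.39 (SE, adjusted p = 0.00196). Cyp51, a sterol demethylase gene, changed by 2.35 ± 0.43 (SE, adjusted p = 0.00722), and 1 of its other probes overlapped. Without wt-proB replicate 1 or 2, its adjusted p was 0.0607 or 0.0523. Idi1, Fdps, Msmo1 and Srebf2 itself were shared higher too. CCAAT was found in 15 of 16 promoters of the list (93.8%) and the sterol regulatory element TCACNCCAC in 1 (all promoters, 1.11%). The promoters of Cyp51 and Idi1 are shown as the shared members with the largest gaps that hold CCAAT. Capitals mark it, read as ATTGG where it lies on the other strand.
Cyp51 (chr5:4104648-4104947, minus strand): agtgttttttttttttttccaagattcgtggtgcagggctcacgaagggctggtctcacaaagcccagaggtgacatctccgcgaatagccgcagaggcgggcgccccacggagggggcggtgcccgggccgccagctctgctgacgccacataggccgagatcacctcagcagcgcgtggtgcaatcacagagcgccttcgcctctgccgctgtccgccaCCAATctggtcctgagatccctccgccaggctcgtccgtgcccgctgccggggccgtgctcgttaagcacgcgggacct
Idi1 (chr13:8885356-8885655, plus strand): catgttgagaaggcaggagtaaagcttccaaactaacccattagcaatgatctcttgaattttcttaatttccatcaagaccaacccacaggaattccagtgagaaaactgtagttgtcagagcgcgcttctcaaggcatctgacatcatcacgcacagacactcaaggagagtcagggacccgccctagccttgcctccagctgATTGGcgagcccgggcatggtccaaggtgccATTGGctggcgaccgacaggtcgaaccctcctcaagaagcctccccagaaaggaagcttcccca

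Glycolysis genes were higher on the dHet side. In the leukemias 12 of 20 were higher than in dHet-proB and none lower, against 21.7% and 24.4% of all genes. Of the 20 measured, 13 were shared higher (65%, background 23.5%) and none lower, with a median change of 1.31, 2.01 in the leukemias and 0.88 in dHet-proB. Under all 5 other scalings 8 stayed shared higher, and on the scaling to detected probes 1 was shared lower. Of the 20, 16 rose in limma, and 12 rose with either wt-proB array left out. Pdk1, which encodes a kinase that keeps pyruvate out of mitochondria, ran from 1.40 to 2.68 on the 8 dHet arrays (median 2.28) and stood at -0.90 and -0.98 on the wt-proB arrays. The change was 2.86 ± 0.13 (SE, adjusted p = 0.00029). Pgk1 changed by 1.92 ± 0.16 (SE, adjusted p = 0.000732) and Gapdh by 1.90 ± 0.14 (SE, adjusted p = 0.000576), with another Gapdh probe overlapping. Among genes of serine and nucleotide synthesis 15 of 29 were shared higher (51.7%) and none lower. Of the 15, 13 stayed so under all 5 other scalings, and on the scaling to detected probes 1 of the 29 was shared lower. Paics, of purine synthesis, changed by 1.94 ± 0.17 (SE, adjusted p = 0.000834), Impdh2 by 1.93 ± 0.26 (SE, adjusted p = 0.00279) and Rrm1, the ribonucleotide reductase subunit, by 1.34 ± 0.15 (SE, adjusted p = 0.00169). Among folate genes 11 of 22 were shared higher (50%) and 2 shared lower. Under all 5 other scalings 7 of the 11 and none of the 2 stayed so. Ahcy, which clears S-adenosylhomocysteine, changed by 1.99 ± 0.14 (SE, adjusted p = 0.000499). Slc19a1, the reduced folate carrier, rose by 5.04-fold (2.33 ± 0.14 (SE, adjusted p = 0.000387)), with 3.78 in the leukemias and 0.89 in dHet-proB, and another of its probes overlapped. In limma 22 of the 29 serine and nucleotide genes rose, and 11 with either wt-proB array left out. For folate genes 13 rose, and 10 with either left out.

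Ribosome biogenesis genes were shared higher about as often as other genes, and none was shared lower (background 18.4%). Of 41 MYC targets and ribosome biogenesis genes, 31 rose in limma (19 and 20 without wt-proB replicate 1 or 2), but 10 were shared higher (24.4%, near the background of 23.5%). The median was 1.84 in the leukemias and -0.32 in dHet-proB. In the leukemias 38 of the 41 were higher than in dHet-proB, against 21.7% of all genes. Wdr12, Npm1 and Ncl were the shared members with a 2-fold gap. Wdr12 changed by 2.09 ± 0.15 (SE, adjusted p = 0.000499) and Npm1, which encodes nucleophosmin, by 1.72 ± 0.17 (SE, adjusted p = 0.00111). Ncl, which encodes nucleolin, changed by 1.61 ± 0.35 (SE, adjusted p = 0.0124), with adjusted p = 0.0857 and 0.0759 with wt-proB replicate 1 or 2 left out. By contrast, 46 of 78 ribosomal protein genes, a list added after values were seen, were shared higher (59%) and 1 shared lower. Of these 78, 53 were lower in the leukemias than in dHet-proB, against 24.4% of all genes, and 15 stayed shared higher under all 5 other scalings. In limma 60 rose, and 36 and 41 without wt-proB replicate 1 or 2. Ribosomal protein genes have many processed copies, so their probes may share signal.

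The STAT5 feedback genes Cish and Socs2 were higher on every dHet array. Cish, which STAT5 induces and whose product dampens cytokine receptors, ran from 2.29 to 4.09 on the 8 dHet arrays (median 3.33) and stood at 0.07 and -0.06 on the wt-proB arrays. Leukemia 760 was highest and dHet-proB lowest, and the change was 2.91 ± 0.23 (SE, adjusted p = 0.000673), or 7.5-fold. Socs2, of the same family, ran from 3.21 to 4.05 on the 8 dHet arrays (median 3.67) and stood at 0.14 and 0.21 on the wt-proB arrays, a change of 3.32 ± 0.13 (SE, adjusted p = 0.000236), but its second probe overlapped. Jak3, the kinase bound to the common gamma chain, changed by 1.70 ± 0.38 (SE, adjusted p = 0.0144), with adjusted p = 0.0947 and 0.0828 without wt-proB replicate 1 or 2 and 0.0645 without dHet-proB. The IL-7 and STAT5 list as a whole had 4 shared higher and 4 shared lower of 23 (17.4% each), neither above the background. Among the lower were Bcl2l1 and Socs3, and other probes of both overlapped. The motif TTCNNNGAA was in 7.07% of all promoters and in 2 of the 7 shared members with a promoter, Cish and Socs3. The Cish promoter is shown, with its matches in capitals, because Cish rose and its matches lie side by side.
Cish (chr9:107296409-107296708, plus strand): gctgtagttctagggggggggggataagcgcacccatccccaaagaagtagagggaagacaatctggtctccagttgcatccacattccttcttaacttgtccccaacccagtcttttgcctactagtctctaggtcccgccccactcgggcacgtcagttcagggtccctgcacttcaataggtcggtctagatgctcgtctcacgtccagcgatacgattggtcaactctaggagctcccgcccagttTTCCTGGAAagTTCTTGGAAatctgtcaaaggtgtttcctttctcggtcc

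Interferon-stimulated genes had no common direction, with 3 shared higher (10.7%, background 23.5%) and 4 shared lower (14.3%, background 18.4%) of 28. The 3 were Ifitm1, Ifitm2 and Ifitm3, neighbouring genes for membrane proteins that restrict virus entry and are expressed in stem and germ cells. Ifitm1 ran from 2.14 to 7.5 on the 8 dHet arrays (median 5.15) and stood at -0.88 and -1.0 on the wt-proB arrays, lowest in leukemia 713 and highest in leukemia 760. It changed by 5.98 ± 0.99 (SE, adjusted p = 0.00533), or 63-fold. Ifitm2 changed by 2.96 ± 0.27 (SE, adjusted p = 0.000942) and Ifitm3 by 2.61 ± 0.31 (SE, adjusted p = 0.00181). The 3 genes are close in sequence, so their probes may share signal. Ddx58, which encodes the RNA sensor RIG-I, and Mx2 were among the lower genes.

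By the shared calls, genes of progenitors and of fetal cells were mostly mixed. Of 13 stem and progenitor genes 5 were shared higher (38.5%, background 23.5%) and 3 shared lower (23.1%, background 18.4%). Kit, the stem cell factor receptor, ran from -0.92 to 3.38 on the 8 dHet arrays (median 0.97) and stood at -1.47 and -1.61 on the wt-proB arrays, highest in dHet-proB. It changed by 3.40 ± 0.52 (SE, adjusted p = 0.00397), and its adjusted p was 0.0521 over the leukemias alone. Tal1, a progenitor factor gene, changed by 2.86 ± 0.30 (SE, adjusted p = 0.00125), while Meis1 and Hoxa7 were among the shared lower genes. Of the 8 dHet arrays none detected Meis1 and 4 detected Hoxa7. Igf2bp3, an oncofetal RNA-binding protein gene, ran from 1.52 to 3.05 on the 8 dHet arrays (median 2.17) and stood at -1.01 and -0.97 on the wt-proB arrays. Its change was 3.46 ± 0.22 (SE, adjusted p = 0.000397), with 2.98 in the leukemias and 3.95 in dHet-proB. Igf2bp2 changed by 1.81 ± 0.22 (SE, adjusted p = 0.00192). The fetal-type list had 2 shared higher and 1 shared lower of 11, below the background on both sides (18.2% and 9.09%). In limma, however, 6 of the 11 rose and 1 fell, against 28% and 21.3% of all genes. The median change of the list was 1.53, against 0.11 over all genes, with 1.09 in the leukemias and 1.41 in dHet-proB.

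Markers of other cell types were also among the shared genes. Of 14 T cell markers 6 were shared higher (42.9%, background 23.5%), among them Thy1, Lck and Tcf7, and none lower. In limma 5 rose and 1, Cd8b1, fell, and 1 rose with either wt-proB array left out. Lck, a Src family kinase gene, changed by 2.29 ± 0.46 (SE, adjusted p = 0.00994), with adjusted p = 0.075 and 0.0638 without wt-proB replicate 1 or 2. The summed linear level of the T cell list was 6.50 to 7.14 in wt-proB, 14.0 to 18 in dHet-proB and 18.9 to 94.5 in the leukemias, and Cd3e was not well above background in wt-proB. Of 21 myeloid markers 9 were shared lower (42.9%, background 18.4%) and 1 higher. In limma 11 fell, and 2 fell with either wt-proB array left out. Camp and Ltf, neutrophil granule genes, changed by -5.94 ± 1.27 (SE, adjusted p = 0.012) and -5.39 ± 1.13 (SE, adjusted p = 0.0115), with leukemia 686 highest of the dHet samples. Camp was detected on 1 and Ltf on 2 of the dHet arrays, and with undetected arrays at the dimmest detected level the changes were -4.53 and -4.30. Without wt-proB replicate 1 or 2 the adjusted p was 0.0714 or 0.0843 for Camp and 0.0663 or 0.0844 for Ltf, and 0.0527 for Ltf without dHet-proB. Tyrobp, an adaptor gene of myeloid and NK receptors, ran from -0.78 to 2.73 on the 8 dHet arrays (median 1.44) and stood at 4.07 and 4.16 on the wt-proB arrays, a change of -3.46 ± 0.37 (SE, adjusted p = 0.00144). The myeloid sum was 115 to 195 in wt-proB, 56.4 to 59.3 in dHet-proB and 23.6 to 222 in the leukemias. Erythroid markers summed to 7.85 to 9.90, 1.71 to 1.92 and 22.1 to 394 in the same order, endothelial and lymph node stroma markers to 6.62 to 7.29, 19.6 to 20.6 and 18.9 to 107.3, stromal and feeder markers to 57.6 to 62.1, 85.6 to 86.4 and 75.8 to 135, and NK markers to 3.05 to 3.86, 17.7 to 19.7 and 22.4 to 46.2. The B cell defining markers summed to 1345 to 1385, 2265 to 2583 and 1065 to 1394, and each of the 13 was detected on dHet, dHet-proB and wt-proB arrays. The part of other cells in these results was not tested.

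The remaining lists gave mixed counts, several of them near the 23.5% higher and 18.4% lower of all genes. Shared higher and lower genes numbered 6 and 1 of 16 hypoxia genes, 7 and 6 of 30 adhesion and homing receptors, 6 and 3 of 20 heat shock proteins and chaperones, and 6 and 4 of 24 epigenetic regulators. They numbered 3 and 2 of 14 BCL2 family genes, 2 and 5 of 17 p53 targets, 2 and 4 of 12 plasma cell genes, and 4 and 5 of 23 pre-B cell receptor and recombination genes. Vegfa of the hypoxia list changed by 1.92 ± 0.19 (SE, adjusted p = 0.00107), with another probe overlapping, while Adm of the same list was at least 21.2-fold lower. Polm, a DNA polymerase gene of end joining, changed by -7.40 ± 1.59 (SE, adjusted p = 0.0123), with adjusted p = 0.0834 and 0.0757 without wt-proB replicate 1 or 2, and its relative Poll by 1.93 ± 0.17 (SE, adjusted p = 0.000844). Mzb1, an endoplasmic reticulum chaperone gene of B cells, changed by 1.43 ± 0.13 (SE, adjusted p = 0.000911).

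**Figure D4:**
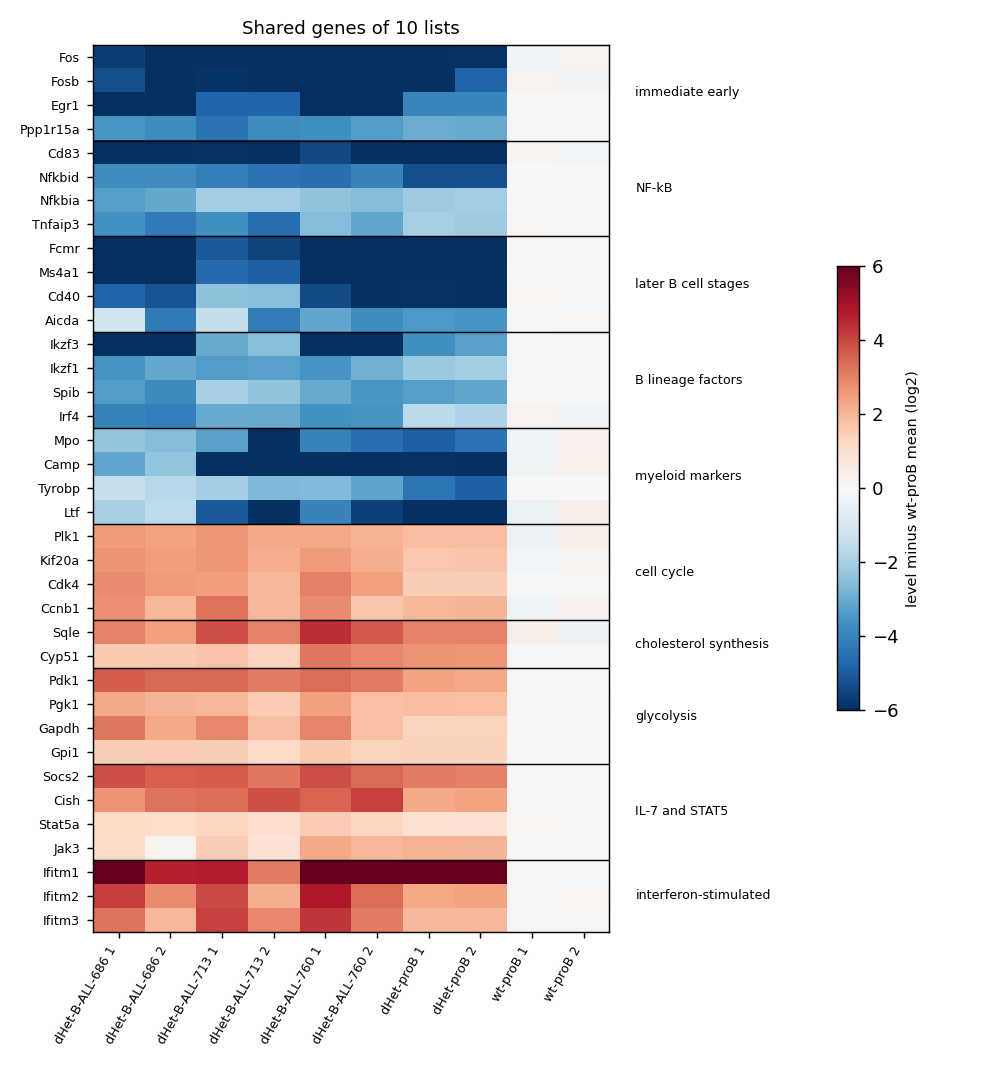
Level minus the wt-proB mean (log2, colours saturating at 6) of 37 shared genes from 10 lists on the 10 arrays. Genes of the 5 upper lists are below wt-proB and genes of the 5 lower lists above it in all 8 dHet columns, with Fos, Cd83 and Ms4a1 at the lower end of the colour scale in most of them.

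How far the shared genes stood from wild type differed between leukemic and non-leukemic cells. The difference between the means of the leukemias and dHet-proB uses no wt-proB array, but its error comes from the fit over all 7 samples, to whose spread wt-proB contributes. Against wild type, 4518 genes rose (31.3%) and 3974 fell (27.5%) in the leukemias, and 2909 (20.1%) and 2269 (15.7%) in dHet-proB, from shared control arrays. Of 14455 genes, 3140 were higher (21.7%) and 3532 lower (24.4%) in the leukemias by limma. These counts were 1571 and 1436 without dHet-proB replicate 1, and 1543 and 1709 without its replicate 2, and 2564 and 2821 without either wt-proB array. With the slide as a random block over the 10 arrays they were 1871 and 1437, with leukemias and dHet-proB on separate slides. Among shared higher genes the leukemias stood further from wild type in 1252 (36.9%), dHet-proB in 215 (6.34%), and 1925 (56.8%) did not pass. Among shared lower genes the counts were 910 (34.2%), 166 (6.24%) and 1583 (59.5%). A gene that did not pass is not shown to be equal. A member had to be on the same side of wild type in both kinds of cell, and these shares describe members chosen that way.

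The genes with the largest excess in the leukemias stood closer to wild type in dHet-proB. Dipk1b stood between 1.88 and 3.59 in the leukemias, at -2.13 and -3.61 in dHet-proB and at -4.55 and -3.88 in wt-proB. Sema4a, a semaphorin gene, showed 5.16 in the leukemias and 0.70 in dHet-proB, and Evpl, which encodes envoplakin, 5.28 in the leukemias and 0.97 in dHet-proB. On the lower side Slc15a2, a peptide transporter gene, showed -6.10 in the leukemias and -0.35 in dHet-proB, and Irs1, the insulin receptor substrate, -4.55 in the leukemias and -0.26 in dHet-proB. The change of Irs1 over all dHet cells had adjusted p = 0.101 and 0.0866 without wt-proB replicate 1 or 2. In the other direction, Ctsh, a cathepsin gene, showed -3.17 in the leukemias and -11.07 in dHet-proB, and the light chain gene Iglv1 -3.41 in the leukemias and -11.22 in dHet-proB. In dHet-proB no array detected Ctsh and 1 detected Iglv1, and in the leukemias no array detected Slc15a2, so that these values rest on signals near background. Over the leukemias alone, without dHet-proB, the adjusted p was 0.112 for Ctsh and 0.0527 for Iglv1. Kit showed 1.95 in the leukemias and 4.85 in dHet-proB, and Septin8 3.12 in the leukemias and 5.72 in dHet-proB. In each of these pairs both values use the same wt-proB arrays.

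**Figure D5:**
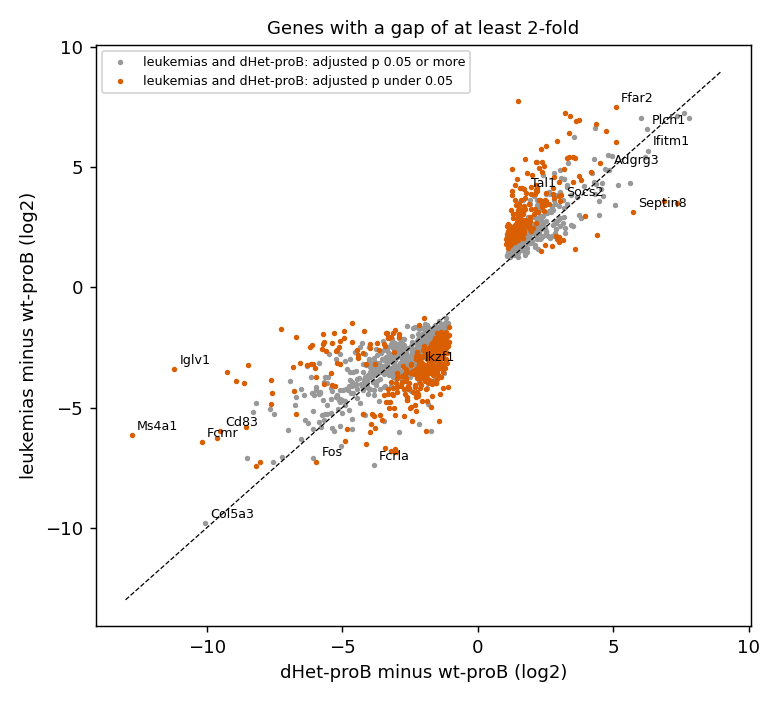
Change from wt-proB (log2) in the leukemias against that in dHet-proB for 1370 genes with a gap of at least 2-fold; orange points, 573 in number, passed limma between leukemias and dHet-proB, and the dashed line marks equal change. Both axes use the same wt-proB arrays and the call leaves the other quadrants and the centre empty, so only the distance from the line is informative: Ms4a1 and Iglv1 lie above it and Ikzf1 below it.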

How the data were processed

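RNA of 10 samples was labelled with Cy3 and hybridised to 1-colour Agilent mouse arrays, per the labels. The authors deposited the scanner files with spot intensity values. Per the file headers these are Agilent Feature Extraction 10.5.1.1 output, with background subtracted and spatially detrended within each array, while version 9.1 is named in the submitters' processing notes. A second file that the authors deposited is a table of log2 values normalized between arrays, used here only as an alternative. Its background correction, floor and centring are not given in the sources used here, its column medians were 6.83 to 6.85, and its values correlated at r = 0.937 to 0.999 with normexp and quantile values of the same arrays.

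The processed signal was taken to log2 after scaling each array to the 75th percentile of its non-control probes. Spots of a probe were averaged and outlier spots left out. Of 41174 probes, 22300 were detected well above background throughout 1 or more of the 5 groups, and the brightest of these stood for its gene, giving 14455 genes. Symbols were updated through RefSeq by accession for 28223 probes, by symbol for 5394 and by synonym for 349, and 7208 kept the name in the files. limma 3.58.1 (lmFit, eBayes) in R 4.3.3 was fitted over 7 samples with Benjamini-Hochberg adjustment over all genes and a threshold of 0.05. Tables were made with data.table (version 1.17.8), pandas 2.3.3 and numpy 2.4.6 in Python 3.11.15. The fit was tested on simulated data for the dHet against wt-proB comparison over 14455 genes: 70% of 100 genes changed by 2 on the log2 scale and 19% of 100 changed by 1 were called, and 9 of 99 calls were false. The simulated spread was that between the 2 arrays of a group, without differences between mice. Only 200 genes were changed, far fewer than limma called in the data, so these rates need not hold for the data. The number of arrays limits the precision.

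The members and gene lists were chosen with earlier results of these data known. Named genes had a symbol, were well above background on every array of the higher side, were shared and passed limma. From these came the 15 per direction with the largest gap, the 8 per direction with the smallest dHet range among those with a gap of at least 1, and the 5 per direction in which each kind of dHet cell stood farthest beyond the other. Up to 4 per direction and list were added, with the targeted genes. Other genes in the text were named as list members after their values were seen. Alternatives covered scaling, background correction (normexp, offset 50), probe filter, probe averaging, sample weighting, slide, scan day, replicate block and each array left out. Some items that these rules select are not reported here.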

Additional observations from a re-analysis of the deposited data

Results flagged for a closer look

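The 20 shared genes given here differed in the size of their change from wild type between leukemias and dHet-proB. They were the 5 per direction in which each kind of cell stood farthest beyond the other. Only shared genes with adjusted p under 0.05 in limma between leukemias and dHet-proB were eligible, so all 20 passed by choice. That fit was over all 7 samples, and its spread includes the wt-proB arrays. Among shared higher genes 1252 passed with the leukemias further from wild type and 215 with dHet-proB further. Among shared lower genes these were 910 and 166. Among genes higher than wild type, the leukemias exceeded dHet-proB by 5.78 ± 0.64 (log2, SE) for Dipk1b, 4.46 ± 0.36 for Sema4a, 4.31 ± 0.37 for Evpl, 3.91 ± 0.36 for Ydjc and 3.83 ± 0.69 for the calcium channel gene Cacna1h. The reverse held for 5 others, with leukemias minus dHet-proB at -3.40 ± 0.19 for Tnfrsf26, -2.91 ± 0.56 for Kit, -2.60 ± 0.31 for Septin8, -2.25 ± 0.26 for the polarity gene Patj and -2.20 ± 0.49 for Fkbp1b. The second probes of Cacna1h and Fkbp1b overlapped between dHet and wt-proB arrays.

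Among genes lower than wild type, the leukemias lay further below in Slc15a2 (-5.75 ± 0.41), Ccnjl (-4.35 ± 0.25), Irs1 (-4.29 ± 0.61), Armcx3 (-4.25 ± 0.57) and Mturn (-4.13 ± 0.42). The dHet-proB arrays lay further below in Ctsh, with leukemias minus dHet-proB at 7.90 ± 1.24, Iglv1 (7.81 ± 1.01), H2-Aa (7.5 ± 1.1), H2-Eb1 (6.92 ± 1.1) and Ms4a1 (6.63 ± 0.66). Slc15a2 and Ccnjl were not well above background on any leukemia array, and Armcx3 was on 1 of 6. In dHet-proB, Ctsh, H2-Aa, H2-Eb1 and Ms4a1 were not well above background on either array, and Iglv1 was on 1 of 2. The sizes given for these 8 rest on signals near background and have no order. Of the genes named above, Ctsh, H2-Aa, H2-Eb1, Iglv1, Kit and Tnfrsf26 no longer passed against wild type without dHet-proB. None of the 8 dHet arrays stood far from the other 7 by Dixon's ratio in the 52 genes tested. The ratio looks at 1 array at a time, so it cannot flag a sample whose 2 arrays moved together. Among the 52 were genes chosen for a small dHet range, in which a far array was unlikely.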

How the results depend on the processing

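Scaling moved the split of shared genes. With array medians 5289 were higher and 1627 lower (2-fold gap: 997 and 564), and limma called 6207 and 1944, with 1979 genes lower in the leukemias than in dHet-proB. With the percentile of detected probes 1999 were shared higher (2-fold gap: 290) and limma called 2438 higher. A 2-fold gap was found for 197 and 432 genes with normexp and 192 and 436 in the authors' value table. Requiring detection on all 10 arrays left 3110 shared higher and 942 shared lower genes (370 and 179 by 2-fold). It left 1201 limma calls lower than wild type, and 2163 lower in the leukemias than in dHet-proB. Using dHet-proB alone on the slide it shares with wt-proB gave 7017 and 5129 (1454 and 2012 by 2-fold), and the leukemias alone gave 4000 lower (1225 higher and 1414 lower by 2-fold); fewer arrays must be on 1 side in both. With the slide as a random block 1871 and 1437 genes differed between leukemias and dHet-proB. Leaving out 1 array or 1 mouse gave 1784 to 4844 higher and 1484 to 3740 lower limma calls, and 1543 to 3667 and 1436 to 4128 between leukemias and dHet-proB. A lone array was assumed to vary like the other groups. The replicate block gave 4212 and 3251; deviations of same-numbered leukemia arrays, which share slides, correlated at 0.44 to 0.63 and other same-numbered pairs at -0.03 to 0.08, so the numbers do not pair all groups. Of the 5899 pairs of a named gene and a setting, 5509 kept direction and call, 377 lost the call, 3 gained it and 10 turned direction. Those were Ptprc (0.11) and Rag2 (0.22) on array medians, Rag2 with quantile (0.045), normexp (0.058) and the authors' values (0.082), Socs3 (0.14) and Tet3 (-0.36) as probe means, and Myc (-1.26), Rag1 (0.30) and Rag2 (0.66) in dHet-proB alone. The cause was not tested. The leukemia arrays of a single slide, alternatives chosen after seeing the data, gave 4151 and 2908 or 3894 and 3133 shared genes. Of the 196 named shared genes, 158 were shared under every scaling. Genes near background have changes of uncertain size, many resting on few detected arrays. For Plch1 the gap was 5.94 on the main scale and 1.76 on the scale where it was smallest.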
